A study of Mus musculus with 5 samples.

Results

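The mitochondrial genome of the mouse encodes 37 genes, and all 37 were found in the deposited count table by their symbols, which start with mt-. They are 2 rRNA genes, 22 tRNA genes and 13 protein-coding genes among 55487 genes in all. Their counts were examined in 5 RNAseq libraries of aortic macrophages. The donor mice were males without Apoe that ate chow until they were 8 weeks old and Western diet for the next 10 weeks. The 2 libraries labelled WT came from Zeb1WT/ApoeKO mice, in which exon 6 of Zeb1 lies between loxP sites but no Cre is present, and the 3 libraries labelled KO came from Zeb1ΔM/ApoeKO mice, in which Cre from the Lyz2 locus removes that exon in myeloid cells. ApoeKO was therefore shared by both groups. Lyz2 is also expressed in neutrophils and monocytes, so the deletion is not restricted to macrophages. The labels describe whole aortas freed of perivascular fat and a sort of viable CD45+ F4/80+ cells. The methods for isolating the cells also describe whole aortas freed of this fat, with a sort that also used CD11b. The methods for the RNAseq instead name the aortic sinus. According to the methods, cells from 3 mice were pooled per genotype and condition and libraries were made in triplicate. For this RNAseq the paper itself lists the same 2 and 3 samples as analysed here. The study's statistics section calls all replicates biologically independent. The labels do not name the mice behind each library, so the p-values below measure the spread between these libraries, and how much of it is technical was not tested.

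The mitochondrial genome is a small circle that is transcribed from both strands into long precursors. The tRNAs lie between most of the rRNA and coding genes, and their excision releases the rRNAs and mRNAs, most of which then receive short poly(A) tails. The coding genes specify subunits of complexes I, III, IV and V of the respiratory chain, the machinery that transfers electrons to oxygen and makes ATP, and the remaining subunits of these complexes come from nuclear genes. In macrophages, respiration is known to differ with the state of activation.

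Several features of the sequences bear on how the members could be counted. The sequences were read from the GRCm38 reference, the build the authors used. The 22 tRNA genes were between 59 and 75 bases long, and 8 of them lay on the minus strand, whereas the reads were 75 bases long. The shortest and the longest tRNA gene, at chrM:11613-11671 and chrM:2676-2750 on the plus strand, are shown to let their lengths be compared with a read.
mt-Ts2: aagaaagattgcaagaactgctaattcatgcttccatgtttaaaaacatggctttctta
mt-Tl1: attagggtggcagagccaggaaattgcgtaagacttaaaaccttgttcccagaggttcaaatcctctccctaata

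Neighbouring coding genes also shared bases. The last 43 bases of mt-Atp8 (chrM:7766-7969, plus strand, 204 bases long), which encodes a small subunit of ATP synthase, are the first 43 bases of mt-Atp6. The shared bases are in capitals in the line for mt-Atp8. mt-Nd4l and mt-Nd4 shared 7 bases on the same strand, and mt-Nd5 and mt-Nd6 shared 14 bases on opposite strands.
mt-Atp8: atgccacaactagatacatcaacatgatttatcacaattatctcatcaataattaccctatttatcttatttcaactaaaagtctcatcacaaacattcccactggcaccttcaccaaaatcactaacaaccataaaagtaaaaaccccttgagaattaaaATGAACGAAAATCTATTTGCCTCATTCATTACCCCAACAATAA

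Of the 13 coding genes, 10 ended in a complete stop codon and 3 ended in a single T, which the poly(A) tail completes to a stop in the mature mRNA. These 3 ends, at chrM:9361-9390, chrM:11515-11544 and chrM:15259-15288 on the plus strand, are shown with the T in capitals because the cDNA of these libraries is primed from poly(A) tails.
mt-Co3 end: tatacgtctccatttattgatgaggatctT
mt-Nd4 end: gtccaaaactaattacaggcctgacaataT
mt-Cytb end: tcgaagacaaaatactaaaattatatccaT

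Long stretches of the coding genes were also present in the nuclear genome. A blastn search of the mitochondrial genes against annotated nuclear genes found 11 nuclear gene models that matched at 95% identity or more over at least 60 bases, all of them annotated as pseudogenes. Of these, 7 lay side by side at chr1:24611535-24616197, and 5 of the 7 matched without a mismatch over the aligned bases. The copy of mt-Co1, Gm29216, matched over 483 bases with 1 mismatch, and the copy of mt-Nd3, Gm28438, matched over 345 bases with 1 mismatch. Both places are shown, with the differing base in capitals. The substitutions were A1066T and T3C, with positions counted from 1 at the first base of the mitochondrial gene, the mitochondrial base first and the base of the nuclear copy last.
mt-Co1 at A1066T: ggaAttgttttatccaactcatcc
Gm29216 at A1066T: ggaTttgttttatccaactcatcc
mt-Nd3 at T3C: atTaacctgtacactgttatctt
Gm28438 at T3C: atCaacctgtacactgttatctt
A read that does not cover such a base matches both places equally well, and the counting then divides it by an estimate.

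The libraries held 20118545 and 34596110 counts in the Zeb1WT/ApoeKO group and 24372265, 35771785 and 50649912 counts in the Zeb1ΔM/ApoeKO group. Zeb1, the targeted gene, had 0 counts in both Zeb1WT/ApoeKO libraries and 22, 0 and 0 counts in the Zeb1ΔM/ApoeKO libraries, so it did not check the labels. Zeb1ΔM/ApoeKO replicate 1 stood apart from the other libraries. It had 20919 genes with at least 1 count, against 7395 to 10689 elsewhere, and 195682 counts on 5 red cell genes, against 0 to 75 elsewhere. Of 12 macrophage markers, 7 were above 3 counts in all 5 libraries, and their summed level was 23059 CPM (counts scaled to 1000000 per library) in Zeb1ΔM/ApoeKO replicate 1 and 30226 to 40178 CPM in the others. In Zeb1ΔM/ApoeKO replicate 1, C1qb, a complement subunit, held 70.9% of that sum, against 5.34% to 15.5% elsewhere. Without C1qb the list had 6709 CPM there and 25637 to 35210 CPM in the others. Lyz2 had 161607 counts in that library, whereas Cd14 had 33, Csf1r 25, Cd68 10, C1qa 5 and Itgam 0. Cd68 and C1qa were also at 0 in Zeb1WT/ApoeKO replicate 1. Values are therefore given library by library, and differences that turn on this library also without it.

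The mitochondrial genes took up between 1.24% and 4.61% of all counts, and the genotypes overlapped. Their share was 3.35% in Zeb1WT/ApoeKO replicate 1 (95% Wilson interval 3.34 to 3.36) and 1.46% in replicate 2 (1.46 to 1.47). In the Zeb1ΔM/ApoeKO libraries it was 4.61% (4.61 to 4.62), 1.24% (1.23 to 1.24) and 1.60% (1.60 to 1.61). The intervals cover counting error only, since PCR reads without molecular identifiers are not independent molecules. The 2 libraries numbered 1 were the high ones, and the other 3 lay at or below 1.60%. A single nuclear gene, CT010467.1, was also highest in these 2 libraries, with 3.42% and 8.67% of all counts against at most 1.98% in the other 3, and its part in the mitochondrial share was not tested.

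The mean share was 2.40% ± 1.33 (SD, n = 2) in Zeb1WT/ApoeKO and 2.49% ± 1.85 (SD, n = 3) in Zeb1ΔM/ApoeKO macrophages. The difference of 0.0813 percentage points was smaller than the spread between libraries (two-sided exact permutation test, p = 0.9). With 2 and 3 libraries the exact permutation test cannot go below p = 0.1. Without Zeb1ΔM/ApoeKO replicate 1 the difference was −0.983 points, and without Zeb1WT/ApoeKO replicate 2 it was −0.862 points, so its sign depended on single libraries. In bulk libraries, fewer cells of a type and less RNA per cell cannot be told apart, and the same holds for more mitochondrial RNA and less nuclear RNA. Markers of cells rich in mitochondria were also read, although a sort for CD45+ F4/80+ cells would remove these cells. Of 11 cardiomyocyte markers, 5 were at 0 in all libraries, with a summed level of 3.88 and 0.0578 CPM in Zeb1WT/ApoeKO and 12.1, 0 and 0.197 CPM in Zeb1ΔM/ApoeKO libraries, highest in the libraries numbered 1. The list of 7 adipocyte markers had a summed level of 456 and 51.9 CPM in Zeb1WT/ApoeKO and 1250, 0 and 11.0 CPM in Zeb1ΔM/ApoeKO libraries, highest in the libraries numbered 1. Nearly all of it was Fabp4, a fatty acid binding protein that macrophages also express, with 9170 and 1793 counts in Zeb1WT/ApoeKO and 30457, 0 and 554 counts in Zeb1ΔM/ApoeKO libraries. Ucp1, Cidea and Cox8b of that list were at 0 in all 5. The summed level of 6 neutrophil markers was 3591 and 669 CPM in Zeb1WT/ApoeKO and 1360, 1008 and 39.5 CPM in Zeb1ΔM/ApoeKO libraries, again highest in the libraries numbered 1. In Zeb1ΔM/ApoeKO replicate 1, however, S100a8 held 33132 of the 33149 counts on this list. S100a9 was at 0 there, against 1041 to 29483 counts in the other libraries. The summed level of 7 T cell markers was 10.8 and 5300 CPM in Zeb1WT/ApoeKO and 1.15, 432 and 1419 CPM in Zeb1ΔM/ApoeKO libraries, lowest in the libraries numbered 1. The part of these cell types in the mitochondrial share was not tested.

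**Figure D1:**
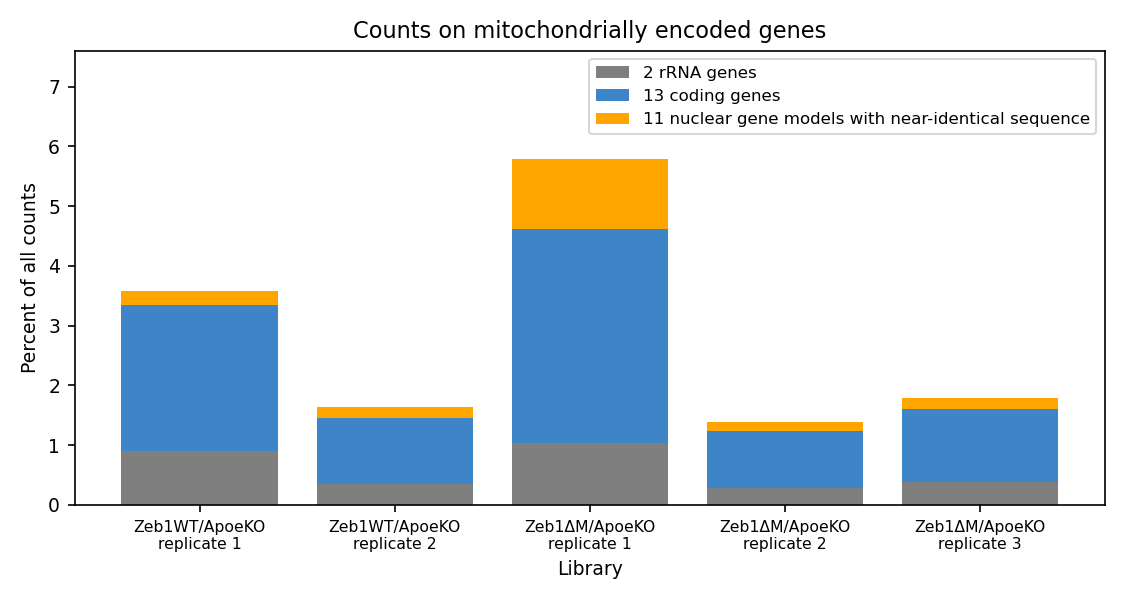
Stacked bars give the percent of all counts in each library (y axis, from 0) on the 2 rRNA genes, the 13 coding genes and the 11 nuclear gene models with near-identical sequence. The mitochondrial genes reached 3.35% and 4.61% in the libraries numbered 1 and stayed at or below 1.60% in the other 3.

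The rRNA genes mt-Rnr1 (chrM:70-1024) and mt-Rnr2 (chrM:1094-2675), which encode the RNAs of the small and large mitochondrial ribosomal subunit, held a narrow share of the mitochondrial counts. It was 27.0% and 23.5% in the Zeb1WT/ApoeKO libraries and 22.6%, 22.8% and 24.0% in the Zeb1ΔM/ApoeKO libraries. Zeb1WT/ApoeKO replicate 1 was the highest, and Zeb1WT/ApoeKO replicate 2 lay among the Zeb1ΔM/ApoeKO libraries. The means were 25.3% ± 2.54 (SD, n = 2) and 23.1% ± 0.725 (SD, n = 3), a difference of −2.12 percentage points (two-sided exact permutation test, p = 0.2). Without Zeb1WT/ApoeKO replicate 1 the difference was −0.324 points, and without Zeb1ΔM/ApoeKO replicate 1 it was −1.87 points.

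Within this share, mt-Rnr2 exceeded mt-Rnr1 in every library, but by different amounts. mt-Rnr2 had 134257 and 103631 counts in the Zeb1WT/ApoeKO libraries and 226451, 95279 and 171595 counts in the Zeb1ΔM/ApoeKO libraries. mt-Rnr1 had 47900 and 14948 counts in the Zeb1WT/ApoeKO libraries and 28138, 5649 and 23184 counts in the Zeb1ΔM/ApoeKO libraries. The ratio of mt-Rnr2 to mt-Rnr1 was 2.80 and 6.93 in Zeb1WT/ApoeKO and 8.05, 16.9 and 7.40 in Zeb1ΔM/ApoeKO libraries. All 3 Zeb1ΔM/ApoeKO ratios were above both Zeb1WT/ApoeKO ratios. The means were 4.87 ± 2.92 (SD, n = 2) and 10.8 ± 5.29 (SD, n = 3), a difference of 5.90 with p = 0.3 in the two-sided exact permutation test, which at these numbers of libraries cannot pass a threshold of 0.05. This ratio was computed after the counts were seen.

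None of the 22 tRNA genes, whose products carry amino acids to the mitochondrial ribosome, had a count in any library. A count of 0 allows up to 3 counts, which is 0.149 and 0.0867 CPM in the Zeb1WT/ApoeKO libraries and 0.123, 0.0839 and 0.0592 CPM in the Zeb1ΔM/ApoeKO libraries. As the sequences of mt-Ts2 and mt-Tl1 show, no tRNA gene is longer than 1 read, and whether their RNA was present in the cells was not detectable with these libraries.

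Levels of the rRNA and coding genes are compared per length, as CPM per kilobase of gene. mt-Cytb, the only mitochondrial subunit of complex III, had the highest median level over the 5 libraries, 3719. It was followed by mt-Atp6 (complex V) with a median level of 2767, by mt-Rnr2 with 2142 and by mt-Nd1 (complex I) with 1914. The complex IV genes mt-Co1 and mt-Co2 had median levels of 1729 and 1520, and were followed by mt-Nd4 with 558, mt-Rnr1 with 479 and mt-Nd2 with 234. The third complex IV gene, mt-Co3, had a median level of 155, mt-Atp8 91.3, mt-Nd5 81.0 and mt-Nd6 74.9. Between 82.5% and 100% of the counts on mt-Co3 and its nuclear copy were assigned to the copy, so the place of mt-Co3 in this order is uncertain. mt-Nd3 and mt-Nd4l had a median of 0. The ranges of neighbouring genes in this order overlapped at each step, so the order is that of the medians. Among 15 genes, the rank of mt-Cytb lay between 1 and 4, that of mt-Atp6 between 1 and 3, that of mt-Rnr2 between 2 and 3 and that of mt-Co2 between 4 and 6, whereas that of mt-Nd6 moved between 5 and 13.

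**Figure D2:**
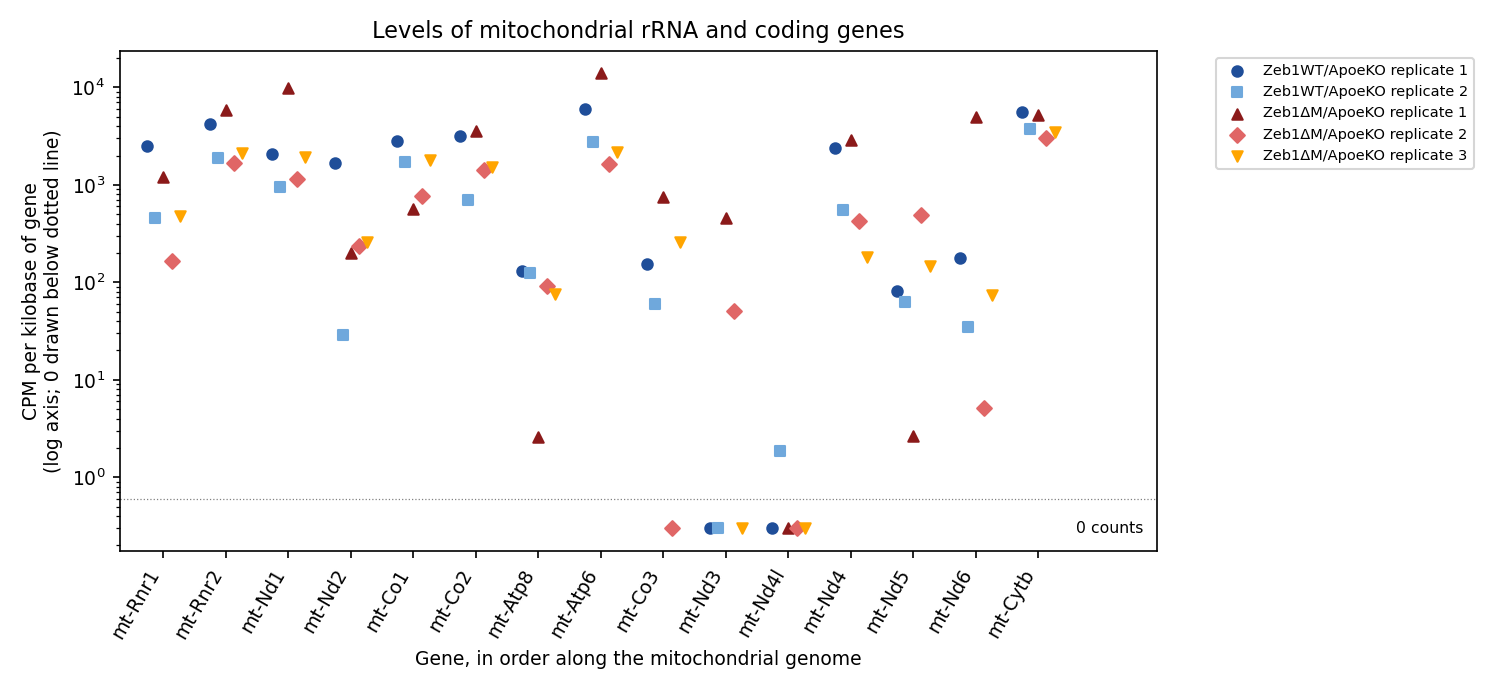
Each point is the level of 1 gene in 1 library, as CPM per kilobase on a log axis, with genes in their order along the mitochondrial genome and values of 0 drawn below the dotted line. mt-Cytb lies within a 1.86-fold range, whereas mt-Nd5 and mt-Nd6 span 185-fold and 971-fold ranges, with Zeb1ΔM/ApoeKO replicate 1 at the low end of mt-Nd5 and the high end of mt-Nd6.

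mt-Cytb (chrM:14145-15288) was also the most even gene between libraries in CPM. It had 6352 and 4254 CPM in the Zeb1WT/ApoeKO libraries and 5978, 3423 and 4001 CPM in the Zeb1ΔM/ApoeKO libraries, and the highest value was 1.86-fold the lowest. The genotypes overlapped, with means of 5303 ± 1483 (SD, n = 2) and 4467 ± 1339 CPM (SD, n = 3; two-sided exact permutation test, p = 0.5). The largest CPM over the smallest was 3.49 for mt-Rnr2, 4.96 for mt-Co1, 5.14 for mt-Co2, 8.43 for mt-Atp6 and 10.5 for mt-Nd1. It reached 15.1 for mt-Rnr1, 15.8 for mt-Nd4, 49.9 for mt-Atp8 and 58.4 for mt-Nd2. With the scaling between libraries used in the edgeR fit below, mt-Cytb ran from 2863 to 12022 CPM and mt-Co1 from 985 to 3181 CPM. Which gene was the most even therefore depended on the scaling.

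The 7 genes for subunits of complex I, the NADH dehydrogenase, included those with the widest ranges among genes with counts in every library, mt-Nd5 and mt-Nd6. mt-Nd1 (chrM:2751-3707) had 1996 and 900 CPM in the Zeb1WT/ApoeKO libraries and 9431, 1106 and 1832 CPM in the Zeb1ΔM/ApoeKO libraries, with Zeb1ΔM/ApoeKO replicate 1 above the others. mt-Nd2 (chrM:3914-4951) had 1751 and 30.0 CPM in the Zeb1WT/ApoeKO and 209, 243 and 272 CPM in the Zeb1ΔM/ApoeKO libraries, so that the Zeb1ΔM/ApoeKO libraries lay between 2 distant Zeb1WT/ApoeKO libraries. mt-Nd4 (chrM:10167-11544) had 3279 and 769 CPM in the Zeb1WT/ApoeKO and 3978, 580 and 252 CPM in the Zeb1ΔM/ApoeKO libraries. The libraries numbered 1 were the high ones for mt-Nd4, as for the mitochondrial share. mt-Nd5 (chrM:11742-13565) had 148 and 113 CPM in the Zeb1WT/ApoeKO and 4.80, 890 and 267 CPM in the Zeb1ΔM/ApoeKO libraries. Here Zeb1ΔM/ApoeKO replicate 1 was the lowest and Zeb1ΔM/ApoeKO replicate 2 the highest of the 5.

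mt-Nd6 (chrM:13552-14070) is the only coding gene on the minus strand. It had 1857 and 622 counts in the Zeb1WT/ApoeKO libraries and 62818, 95 and 1969 counts in the Zeb1ΔM/ApoeKO libraries, which is 92.3 and 18.0 CPM and 2577, 2.66 and 38.9 CPM. The Zeb1ΔM/ApoeKO group thus held both the highest and the lowest library. The cDNA kit does not mark strand, so RNA copied from the opposite strand at this place cannot be told apart from mt-Nd6 mRNA. The gene was also the poorest in A among the coding genes, with 22.2% A and a longest run of 3 A, against 29.5% to 40.7% A in the 12 others.

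mt-Nd3 (chrM:9459-9806) had 0 counts in both Zeb1WT/ApoeKO libraries and 3916, 636 and 0 counts in the Zeb1ΔM/ApoeKO libraries. mt-Nd4l (chrM:9877-10173) had 19 counts in Zeb1WT/ApoeKO replicate 2 and 0 in the other 4 libraries. Both genes have a nuclear copy over nearly their whole length, and their values are uncertain for that reason.

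Of the 3 genes for the catalytic core of complex IV, the cytochrome c oxidase, mt-Co1 (chrM:5328-6872) had 4366 and 2671 CPM in the Zeb1WT/ApoeKO and 881, 1177 and 2805 CPM in the Zeb1ΔM/ApoeKO libraries. mt-Co2 (chrM:7013-7696) had 2177 and 473 CPM in the Zeb1WT/ApoeKO and 2435, 977 and 1040 CPM in the Zeb1ΔM/ApoeKO libraries. mt-Co3 (chrM:8607-9390) had 122 and 47.5 CPM in the Zeb1WT/ApoeKO and 595, 0 and 201 CPM in the Zeb1ΔM/ApoeKO libraries. The genotypes overlapped for all 3 genes.

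Of the genes for the ATP synthase, complex V, mt-Atp6 (chrM:7927-8607) had 4114 and 1884 CPM in the Zeb1WT/ApoeKO and 9452, 1121 and 1479 CPM in the Zeb1ΔM/ApoeKO libraries. mt-Atp8, which overlaps it by the 43 bases printed in capitals above, had 535 and 880 counts in the Zeb1WT/ApoeKO and 13, 666 and 782 counts in the Zeb1ΔM/ApoeKO libraries, or 26.6 and 25.4 CPM and 0.533, 18.6 and 15.4 CPM. Both Zeb1WT/ApoeKO libraries were above all 3 Zeb1ΔM/ApoeKO libraries in CPM, with means of 26.0 ± 0.817 (SD, n = 2) and 11.5 ± 9.66 CPM (SD, n = 3; two-sided exact permutation test, p = 0.2).

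Counts divided between mitochondrial genes and their nuclear copies differed from gene to gene. The copy of mt-Co3, Gm28437, held 29982 and 28177 counts in the Zeb1WT/ApoeKO libraries and 198535, 22026 and 48179 counts in the Zeb1ΔM/ApoeKO libraries. That is 92.5% and 94.5% and then 93.2%, 100% and 82.5% of the counts on the pair. Added together, mt-Co3 and Gm28437 had 1612 and 862 CPM in the Zeb1WT/ApoeKO libraries and 8741, 616 and 1152 CPM in the Zeb1ΔM/ApoeKO libraries. The 0 counts of mt-Co3 in Zeb1ΔM/ApoeKO replicate 2 thus stood beside 22026 counts on a sequence that matched it without a mismatch over 783 bases.

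For mt-Co1, whose copy Gm29216 covers 483 of its 1545 bases, the copy held 15.0% and 17.4% of the pair's counts in the Zeb1WT/ApoeKO libraries and 77.9%, 40.8% and 21.1% in the Zeb1ΔM/ApoeKO libraries. The sum of the pair was 5138 and 3232 CPM in the Zeb1WT/ApoeKO and 3993, 1990 and 3554 CPM in the Zeb1ΔM/ApoeKO libraries, a narrower range than that of mt-Co1 alone. For mt-Nd3, Gm28438 held 11 and 0 counts in the Zeb1WT/ApoeKO libraries and 12100, 1040 and 10 counts in the Zeb1ΔM/ApoeKO libraries. For mt-Nd4l, Gm10222 held 0 and 753 counts in the Zeb1WT/ApoeKO and 1, 84 and 1475 counts in the Zeb1ΔM/ApoeKO libraries. The copies of mt-Atp6, mt-Co2 and mt-Nd4 match over 678, 681 and 876 bases, yet Gm10925 had counts in 2 libraries (15798 in Zeb1WT/ApoeKO replicate 2 and 6559 in Zeb1ΔM/ApoeKO replicate 3), Gm28661 in 1 (684 in Zeb1WT/ApoeKO replicate 1) and Gm28439 in 1 (5 in Zeb1ΔM/ApoeKO replicate 1). The 4 copies on chromosomes 2 and 13, at 95.2% to 97.6% identity, had at most 35 counts each in any library.

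**Figure D3:**
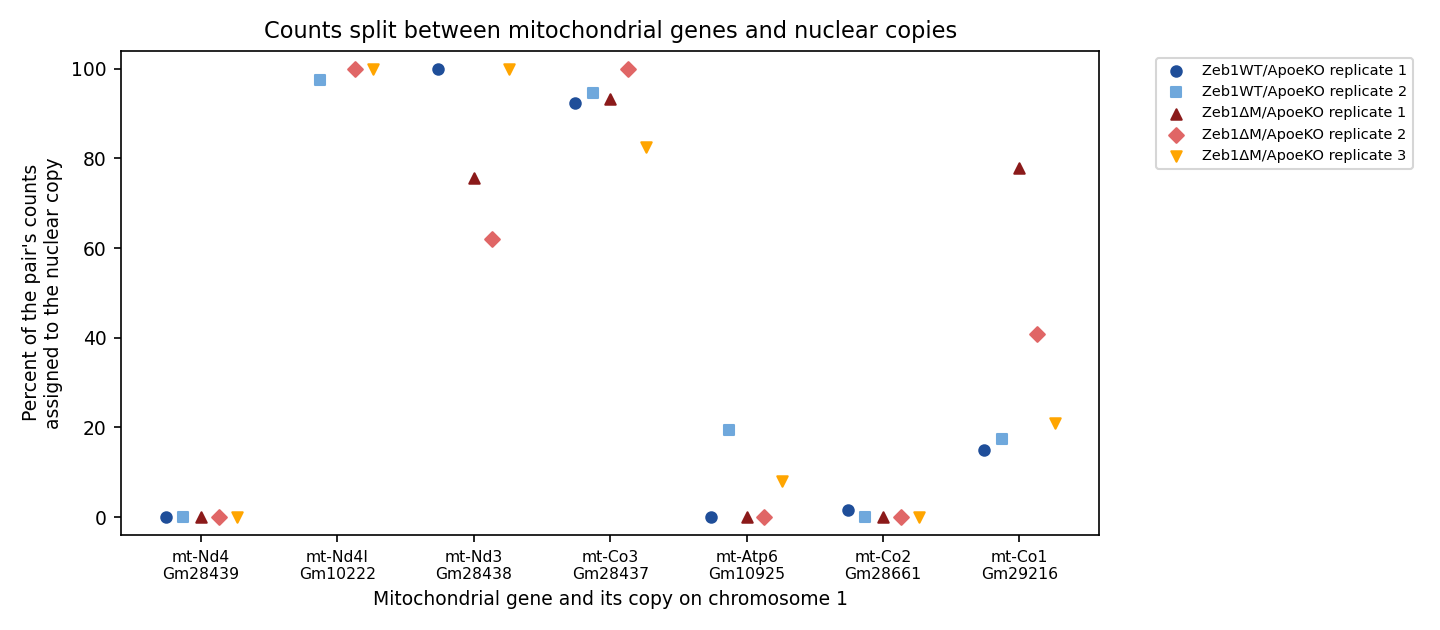
Points give the percent of the summed counts of a mitochondrial gene and its copy on chromosome 1 that was assigned to the copy, 1 point per library, drawn where the pair had more than 3 counts. For mt-Co3 the copy held 82.5% to 100% in all 5 libraries, whereas for mt-Co1 it ranged from 15.0% to 77.9%.

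The 7 copies on chromosome 1 together held 0.230% and 0.185% of all counts in the Zeb1WT/ApoeKO libraries and 1.18%, 0.146% and 0.186% in the Zeb1ΔM/ApoeKO libraries. With all 11 copies added, the mitochondrial share was 3.58% and 1.65% in Zeb1WT/ApoeKO and 5.79%, 1.38% and 1.79% in Zeb1ΔM/ApoeKO libraries, with no change in the order of the libraries and a difference in means of 0.376 percentage points (two-sided exact permutation test, p = 0.9). Adding the copies was an alternative for the single genes chosen after the data were seen.

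Shares within the mitochondrial coding counts do not depend on how libraries are scaled to each other. mt-Cytb held the largest share in 4 libraries, with 26.0% and 38.0% in Zeb1WT/ApoeKO and 16.7%, 35.8% and 32.8% in Zeb1ΔM/ApoeKO, where in Zeb1ΔM/ApoeKO replicate 1 it came after mt-Atp6 with 26.5% and mt-Nd1 with 26.4%. mt-Nd1 was the only one of the 13 genes, 7.69%, whose share did not overlap between genotypes. It was 8.17% and 8.04% in the Zeb1WT/ApoeKO libraries and 26.4%, 11.6% and 15.0% in the Zeb1ΔM/ApoeKO libraries. The means were 8.11% ± 0.0931 (SD, n = 2) and 17.7% ± 7.77 (SD, n = 3), a difference of 9.56 percentage points, and the two-sided exact permutation test gave p = 0.2, or 0.813 after Benjamini-Hochberg adjustment over the 13 genes. Without Zeb1ΔM/ApoeKO replicate 1 the difference was 5.19 points. No share of the 13 had an adjusted p below 0.813 in this exact test.

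The share of mt-Co1 was 17.9% and 23.9% in the Zeb1WT/ApoeKO and 2.47%, 12.3% and 23.0% in the Zeb1ΔM/ApoeKO libraries, and that of mt-Atp6 was 16.8% in both Zeb1WT/ApoeKO and 26.5%, 11.7% and 12.1% in the Zeb1ΔM/ApoeKO libraries. mt-Nd5 held 0.605% and 1.01% in the Zeb1WT/ApoeKO and 0.0134%, 9.31% and 2.19% in the Zeb1ΔM/ApoeKO libraries. mt-Nd6 held 0.378% and 0.161% in the Zeb1WT/ApoeKO and 7.22%, 0.0278% and 0.319% in the Zeb1ΔM/ApoeKO libraries. For mt-Nd5 and mt-Nd6 the Zeb1ΔM/ApoeKO libraries thus lay on both sides of the Zeb1WT/ApoeKO libraries.

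**Figure D4:**
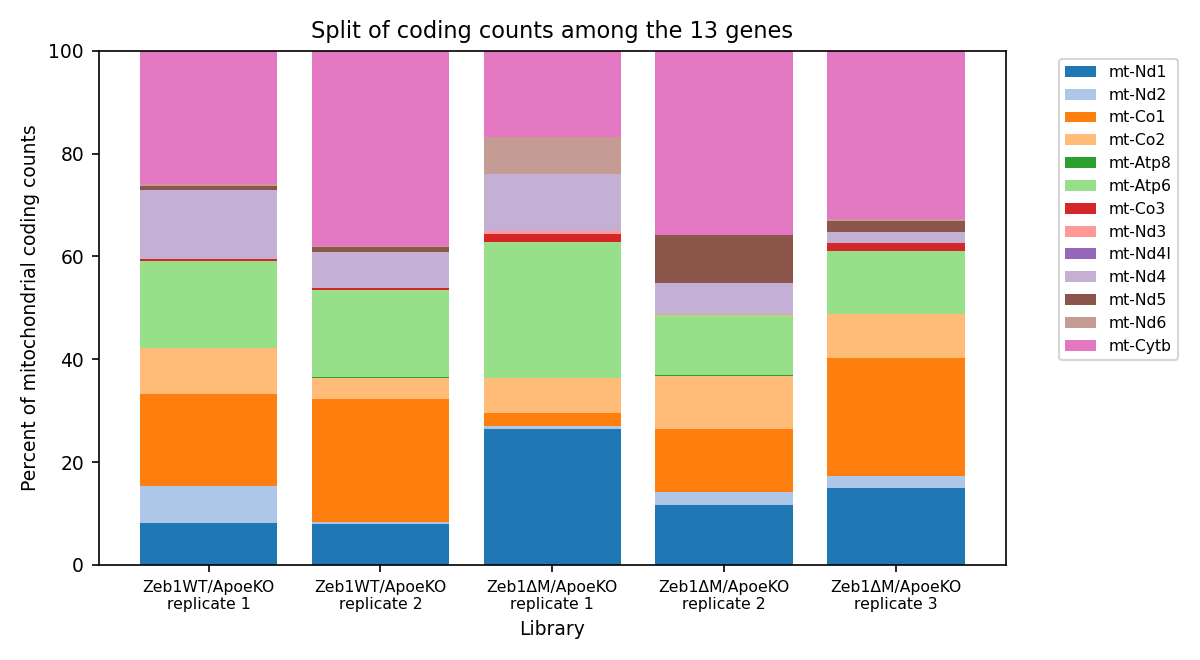
Stacked bars give the percent of mitochondrial coding counts on each of the 13 coding genes in each library, from 0 to 100. mt-Cytb is the largest part in 4 libraries, and in Zeb1ΔM/ApoeKO replicate 1 mt-Atp6 (26.5%) and mt-Nd1 (26.4%) are larger than mt-Cytb (16.7%).

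By complex, the 7 genes of complex I held 29.8% and 16.4% of the coding counts in the Zeb1WT/ApoeKO libraries and 45.8%, 29.7% and 21.8% in the Zeb1ΔM/ApoeKO libraries. The 3 genes of complex IV held 27.3% and 28.5% in the Zeb1WT/ApoeKO and 11.0%, 22.5% and 33.2% in the Zeb1ΔM/ApoeKO libraries. The 2 genes of complex V held 17.0% and 17.1% in the Zeb1WT/ApoeKO and 26.5%, 11.9% and 12.2% in the Zeb1ΔM/ApoeKO libraries. The genotypes overlapped for each complex, and the adjusted p of the two-sided exact permutation test was 1 for all 4 complexes. With the nuclear copies added, complex IV held 33.5% and 35.0% in the Zeb1WT/ApoeKO and 32.0%, 32.5% and 40.9% in the Zeb1ΔM/ApoeKO libraries, and Zeb1ΔM/ApoeKO replicate 1 then lay beside replicate 2.

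To compare the genotypes gene by gene, edgeR's quasi-likelihood test was fitted to all genes with sufficient counts. Of the 37 members, 14 passed this filter, namely all rRNA and coding genes but mt-Nd4l. edgeR called 0 of these 14 at an adjusted p under 0.05, as it called 0 (0.0%) of the 7905 genes tested, and 0 of the 14 had an unadjusted p under 0.05, against 86 (1.09%) of all. DESeq2, the tool named in the methods, called 790 of 6519 genes with an adjusted p (12.1%) and 0 of the 9 members that had one. All adjusted p-values from edgeR were 1 for the 14 genes. The common dispersion was 6.44, which is a spread between libraries of the same genotype far larger than counting error.

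The largest fitted change with counts in both groups was that of mt-Nd6, with a log2 fold change of 5.35 (standard error 3.57) in Zeb1ΔM/ApoeKO over Zeb1WT/ApoeKO macrophages, and it was −1.36 without Zeb1ΔM/ApoeKO replicate 1. mt-Co3 had 2.78 (standard error 4.11), mt-Nd1 2.62 (2.12), mt-Nd5 1.62 (4.06) and mt-Atp6 1.55 (1.97). mt-Co2 had 1.13 (2.53), mt-Rnr2 1.04 (1.83), mt-Nd4 0.88 (2.33) and mt-Cytb 0.50 (1.86). mt-Nd2 had −1.13 (3.31), mt-Atp8 −1.06 (4.52), mt-Co1 −0.65 (2.26) and mt-Rnr1 −0.16 (2.79). mt-Nd3 was at 0 in both Zeb1WT/ApoeKO libraries and is given by its counts alone. The standard errors were derived from the fold change and the test statistic, so they carry the same information as the p-value. Among the genes given with one, they exceeded the size of the fold change for all but mt-Nd1 and mt-Nd6.

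The fold change was above 0 for 10 of the 14 genes and for 4811 (60.9%) of all genes tested. The median was 1.09 over the 14 and 0.78 over all, and it stayed at 1.09 with mt-Nd3 at its lower bound. That bound, at least 399-fold against 3 counts in the shallower Zeb1WT/ApoeKO library, was carried by Zeb1ΔM/ApoeKO replicate 1. It was at least 59.6-fold without it, and it rests on counts that the copy Gm28438 makes uncertain. With total counts in place of TMM (edgeR's scaling between libraries, with a factor of 0.515 for Zeb1ΔM/ApoeKO replicate 1 and 1.03 to 1.42 for the others), these medians were 0.12 and 0.13. With RLE size factors they were 1.69 and 1.24. Without Zeb1ΔM/ApoeKO replicate 1 the median of the 13 members still tested was −0.73, against 0.14 over all genes in that fit, and 7 of the 13 fold changes changed sign. Scaled counts of the 2 genotypes did not overlap for 1 of the 14 genes, mt-Atp8, which was lower in the Zeb1ΔM/ApoeKO libraries, and for 887 (11.2%) of all genes tested, 359 (4.54%) of them lower and 528 (6.68%) higher.

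**Figure D5:**
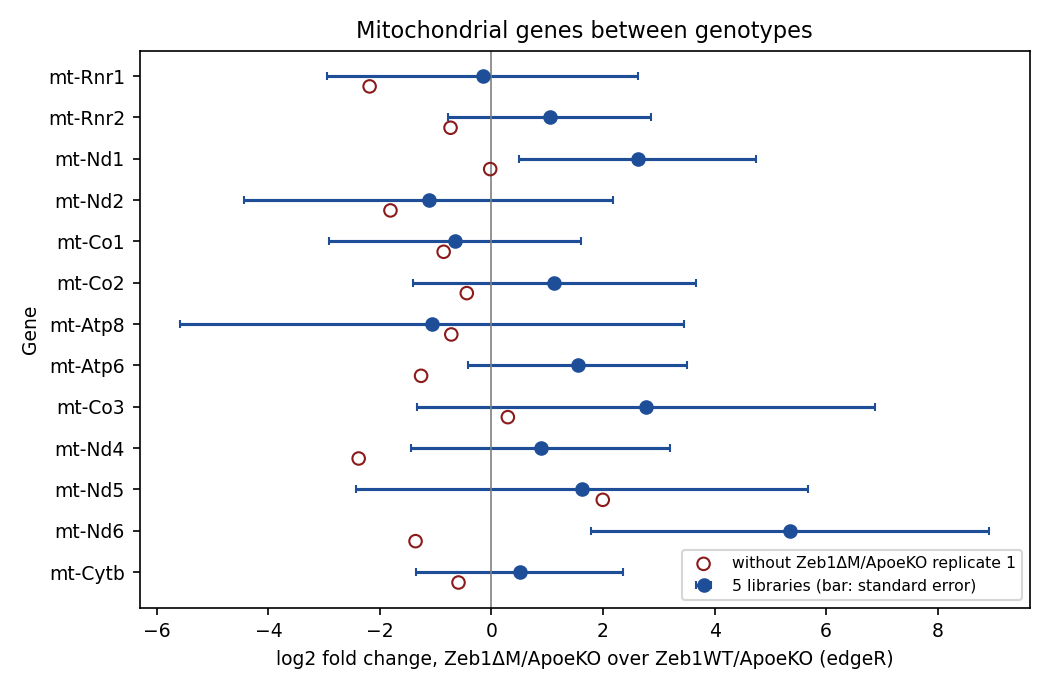
Filled points give the log2 fold change of Zeb1ΔM/ApoeKO over Zeb1WT/ApoeKO from edgeR with its standard error as bars, for the 13 tested genes with counts in both genotypes, and open points the value without Zeb1ΔM/ApoeKO replicate 1. The standard error was derived from the fold change and the test statistic. All bars but those of mt-Nd1 and mt-Nd6 cross 0, and the values of both are at or below 0 (−0.022 and −1.36) without that library.

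Nuclear genes for the same complexes were set beside the members. Of 37 nuclear genes of complex I, 9 were above 3 counts in all 5 libraries, as were 4 of 9 for complex III, 8 of 10 for complex IV and 8 of 14 for complex V. Among the mitochondrial coding genes 10 of 13 were. The summed level of the complex IV list was 4002 and 2069 CPM in the Zeb1WT/ApoeKO libraries and 14724, 4158 and 3072 CPM in the Zeb1ΔM/ApoeKO libraries, that is, highest in Zeb1ΔM/ApoeKO replicate 1. Here Cox4i1, which encodes the largest nuclear subunit, had 10766 and 23193 counts in the Zeb1WT/ApoeKO libraries and 57566, 33295 and 37036 counts in the Zeb1ΔM/ApoeKO libraries. Other members of the list were low in Zeb1ΔM/ApoeKO replicate 1, with 21 counts for Cox5b, 2 for Cox7c and 0 for Cox7b. The complex I list had 10775 and 5544 CPM in the Zeb1WT/ApoeKO and 5679, 8106 and 7866 CPM in the Zeb1ΔM/ApoeKO libraries. The complex III list had 6147 and 2185 CPM in the Zeb1WT/ApoeKO and 1155, 1980 and 2534 CPM in the Zeb1ΔM/ApoeKO libraries, lowest in Zeb1ΔM/ApoeKO replicate 1. The summed level of the complex V list ran from 3147 to 3726 CPM over the 5 libraries, but some of its members were uneven. Among them, Atp5b had 10 and 25383 counts in the Zeb1WT/ApoeKO and 0, 0 and 46389 counts in the Zeb1ΔM/ApoeKO libraries. edgeR called 0 genes of these 4 lists, and 0 of them had an unadjusted p under 0.05.

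Genes for the upkeep of the mitochondrial genome and its RNA were counted unevenly between libraries. Of 10 genes for its transcription, 13 for its replication and 21 for RNA processing and stability, 0 were above 3 counts in all 5 libraries, and of 8 regulators of mitochondrial biogenesis 1 was, Gabpa. Of all nuclear coding genes, 4.30% were, so a low number of such genes was not particular to these lists. The summed level of the processing list ran from 411 to 2363 CPM, that of the transcription list from 0.0994 to 335 CPM, that of the replication list from 2.67 to 635 CPM and that of the regulators from 0.391 to 475 CPM. Single genes were high in single libraries. Supv3l1, a mitochondrial RNA helicase, had 56625 counts in Zeb1ΔM/ApoeKO replicate 1 and 0 to 7157 elsewhere. Nrf1, a transcription factor of the regulator list, had 10388 counts in Zeb1WT/ApoeKO replicate 2 and 0 to 23 elsewhere. These genes and the next 3 were chosen after their values were seen. Tfam, which packages the mitochondrial genome and helps start its transcription, had 0 and 12 counts in the Zeb1WT/ApoeKO libraries and 13, 1 and 0 counts in the Zeb1ΔM/ApoeKO libraries. Polrmt, the mitochondrial RNA polymerase, had 6 counts in Zeb1ΔM/ApoeKO replicate 1 and 0 elsewhere. Lrpprc, which stabilises mitochondrial mRNAs, had 0 counts in both Zeb1WT/ApoeKO libraries and 103, 0 and 222 counts in the Zeb1ΔM/ApoeKO libraries. Of these lists, 3, 3, 9 and 4 genes were tested by edgeR, with 0 called and 0 at an unadjusted p under 0.05.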

How the data were processed

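Macrophages of Zeb1WT/ApoeKO and Zeb1ΔM/ApoeKO mice were sorted and their cDNA amplified with the SMART-Seq v4 ultra-low-input kit. Per the submitters' processing notes and the methods, the authors mapped paired-end reads of 75 bases to GRCm38 with STAR 2.5.3a and estimated expression with RSEM 1.3.0 and a GENCODE mouse annotation. The deposited values were expected counts rounded to whole numbers, 1 column per library, without normalization, and were used as counts. RSEM divides reads that match several genes, which affects mitochondrial genes with nuclear copies.

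Libraries were grouped by their titles. Members were the symbols starting with mt-, and the naming rule covered all of them. The tRNA genes, all at 0, are described as a group. Members and lists were chosen with earlier results of these data known. Coordinates came from GENCODE M21 (GRCm38), which held all 37 identifiers, and copies were found with blastn 2.17.0. Counts were fitted with edgeR 4.0.16 in R 4.3.3 (filterByExpr, minimum count 10, TMM, quasi-likelihood test, Benjamini-Hochberg adjustment), without covariates. Shares were compared with an exact permutation test over 10 splits. Both were tested on simulated data. The floor was 3 counts. Alternatives were DESeq2 1.42.0, RLE size factors, total counts, no filter, mitochondrial genes left out of the scaling, other denominators, the replicate number as a block, each library left out, and copies added. Shares were computed in Python 3.11.15 with scipy 1.17.1, and plots were drawn with matplotlib 3.10.9.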

Additional observations from a re-analysis of the deposited data

How the results depend on the processing

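The count of members called by edgeR was 0 under every alternative, with 1 at an unadjusted p under 0.05 with RLE size factors. The count over all genes was 0 except with DESeq2 (790), and in the edgeR fits 7 to 173 genes had an unadjusted p under 0.05. In the labels, libraries of the 2 genotypes are linked only by their replicate number. The differences between replicates 1 and 2 had a correlation of 0.18 across genes between genotypes. Whether libraries of the same number shared a batch was not tested. With the replicate number as a block, edgeR again called 0 genes (7 had an unadjusted p under 0.05), the median of the members was 0.56, and mt-Nd2 (0.57), mt-Co3 (−3.83) and mt-Nd5 (−0.38) changed sign. Other reversed log2 fold changes were mt-Rnr1 with DESeq2 (0.25) and RLE (0.47), mt-Nd4 with total counts (−0.34) and without the filter (−0.56), mt-Cytb with the same (−0.26 and −0.12), and mt-Co1 with its copies added (0.34). The cause was not tested.

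With each library left out in turn, the difference in the mitochondrial share ranged from −0.983 to 1.02 percentage points, that in the rRNA share from −3.92 to −0.324, and the median of the members from −0.73 to 1.68. The median over all genes exceeded that of the members without Zeb1WT/ApoeKO replicate 1 (6.42 against 1.68), without Zeb1WT/ApoeKO replicate 2 (6.32 against 0.19), without Zeb1ΔM/ApoeKO replicate 1 (0.14 against −0.73), without the filter (2.54 against 0.16), with the block (0.60 against 0.56) and with total counts (0.13 against 0.12), so the order of the 2 medians depended on these choices. The share gave 0.208 points over counts of protein-coding genes, 0.251 without the 10 largest nuclear genes and 0.376 with copies added, and the rRNA share with copies −3.09. Log2 fold changes ranged from −2.18 to 0.95 for mt-Rnr1, −0.73 to 1.61 for mt-Rnr2, −0.022 to 3.29 for mt-Nd1, −2.34 to 3.25 for mt-Nd2, −0.44 to 2.07 for mt-Co2, −1.26 to 2.24 for mt-Atp6, −2.38 to 1.65 for mt-Nd4, −1.36 to 6.29 for mt-Nd6 and −0.59 to 0.92 for mt-Cytb, and the others kept their sign. Among these, mt-Co3 was at 0.29 without Zeb1ΔM/ApoeKO replicate 1 and mt-Nd5 at 0.40 without Zeb1ΔM/ApoeKO replicate 2. Differences in coding shares ranged from −5.39 to 1.52 points for mt-Nd2, −0.396 to 4.29 for mt-Co2, −4.92 to 2.45 for mt-Atp6, −0.0962 to 3.50 for mt-Nd6 and −9.58 to 2.44 for mt-Cytb. A fit with 1 Zeb1WT/ApoeKO library assumes that it varies like the other group, and the exact test then cannot go below p = 0.25. The floor of 3 counts limits what can be said of a gene at 0.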

Other observations

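Among genes with a mean of 1000 CPM or more, all 7 mitochondrial genes and 108 of 134 nuclear coding genes (80.6%) were above 3 counts in all 5 libraries. The median ratio of the highest to the lowest CPM was 5.14 for the 7 mitochondrial genes. For the 108 nuclear genes above 3 counts in all 5 libraries it was 18.5, and the remaining nuclear genes of that level were left out of this median. Over all 55487 genes, 1085 (1.96%) were above 3 counts in every library.

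The order of levels was compared between libraries by Pearson's r of log2(CPM per kilobase + 1) over the 15 rRNA and coding genes, which share a genome and a library and are not independent replicates. Over the 10 possible pairs it ran from 0.454 to 0.956. The mean was 0.677 over the 4 pairs within a genotype and 0.768 over the 6 pairs between genotypes. It was 0.583 over the 4 pairs that held Zeb1ΔM/ApoeKO replicate 1 and 0.830 over the 6 pairs without it.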
